A study of Rattus norvegicus with 12 samples.

Results

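Cultured heart muscle cells with less p300 were compared with control cells before any drug was added. Of the 12 arrays in the series, the 6 arrays at 0 h of doxorubicin were used for this comparison, chosen by their titles: 3 from cells given a non-silencing siRNA (NS) and 3 from cells given an siRNA against p300. The other 6 arrays were the same 2 kinds of cell after 8 h in 1 µM doxorubicin. They do not enter the 0 h changes, but unless stated the standard error (SE) and p of each 0 h change rest on the spread of all 12 arrays. Their own changes are given only where stated. Cells of each array were neonatal cardiac myocytes of Sprague Dawley rats, with over 90% myocytes per the labels, kept in bromodeoxyuridine for the first 4 days to hold back fibroblasts, transfected with siRNA on the way, and then held for 48 h in serum-free medium with transferrin, vitamin B12 and insulin. Arrays share a replicate number within each of 3 experiments, so the p300 siRNA array was set against the NS array of its own experiment. The labels name a p300 siRNA and no untransfected cells and do not say whether the same siRNA was used in the 3 experiments, and a knockdown leaves part of the transcript in place. Levels are log2 of the deposited array intensity, and a change is the p300 siRNA minus the NS level, averaged over experiments, for 14506 genes with 1 symbol.

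The protein p300, encoded by Ep300, is a lysine acetyltransferase and transcriptional coactivator. It is brought to promoters and enhancers by DNA-binding factors, acetylates histones there and often the factors themselves, and works beside the closely related CBP, encoded by Crebbp. In the heart it is known as a partner of GATA4, MEF2 and other factors of myocyte growth. The comparison asks which transcripts differ between cells given the p300 siRNA and NS cells at rest. Whether a change follows from the loss of p300 itself was not tested.

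Ep300 was measured first, since it checks the labels. Its level was 11.16, 11.01 and 11.14 log2 in the NS arrays of experiments 1, 2 and 3, and 10.41, 10.02 and 10.05 in the p300 siRNA arrays. The groups did not overlap, and the least p300 transcript was lost in experiment 1. The mean change was -0.95 (SE 0.0736), which left 51.9% of the NS intensity, with an adjusted p of 2.7e-05 (limma, Benjamini-Hochberg over 14506 genes, as in every adjusted p below). Crebbp was at 11.13, 10.98 and 11.16 in NS and at 11.14, 11.12 and 11.14 in p300 siRNA cells, a change of 0.04 (SE 0.0649, adjusted p 0.867). Of the 15 measured acetyltransferases, Ep300 was called lower and the other 14 were not called, with Nat10 at 0.19 and Kat2a at 0.14. None of the 16 deacetylases and sirtuins was called, with a median change of 0.01.

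**Figure D1:**
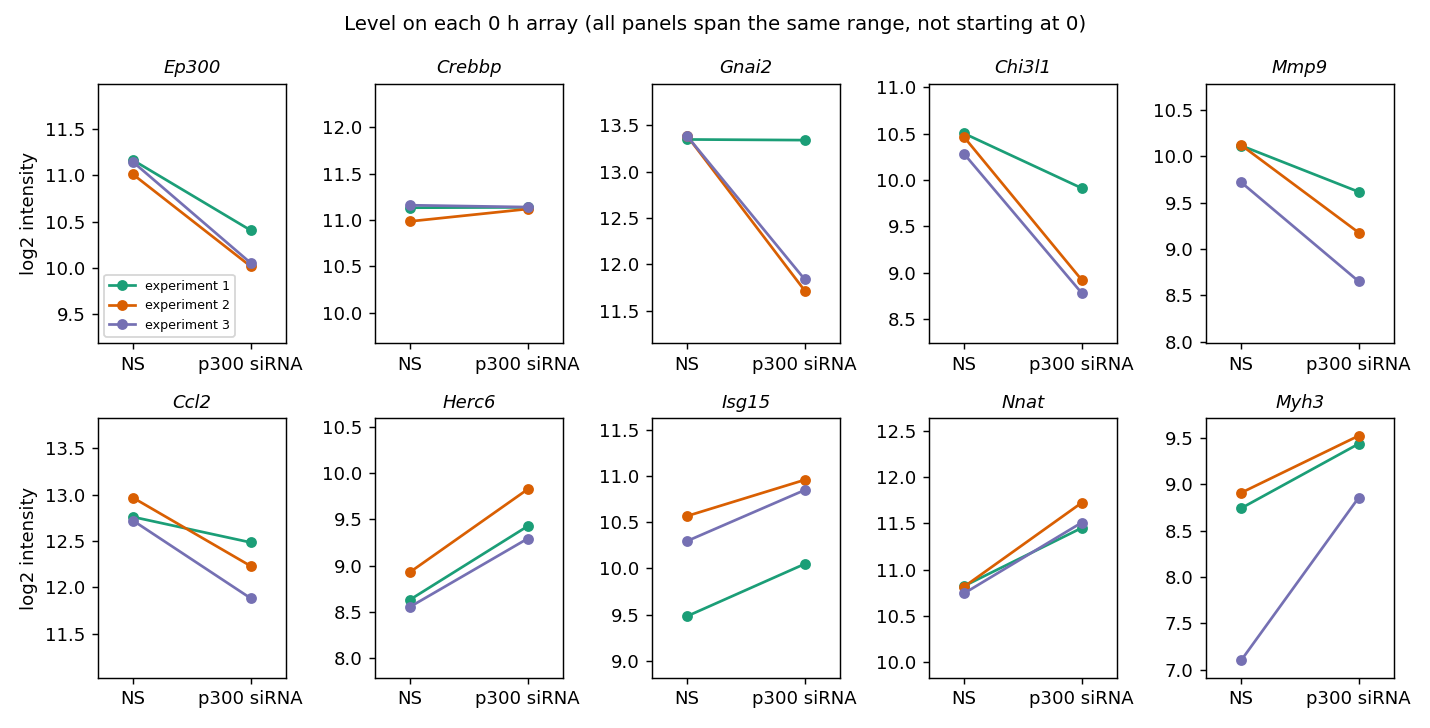
Log2 intensity of 10 genes on each of the 6 arrays before doxorubicin, with NS on the left and p300 siRNA on the right of each panel and a line for each experiment; the vertical axes span the same range and do not start at 0. Ep300 falls in the 3 experiments, Crebbp is nearly level, and Gnai2 falls in experiments 2 and 3 with 13.35 against 13.34 in experiment 1.

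A gene was called when its adjusted p was under 0.05. In total 390 of 14506 genes were called (2.69% of those tested), 289 lower (1.99%) and 101 higher (0.696%) in p300 siRNA cells. Most changes were small: the median was -0.41 among the genes called lower and 0.33 among those called higher. A change of at least 2-fold was reached by 3 genes that fell (Chi3l1, Pla2g2a and Gnai2) and by 1 that rose (Myh3), and one of at least 1.5-fold by 48 and 6. The 3 arrays of one group lay above the 3 of the other for 279 of the called genes, and for 1888 of all genes (13.0%). The p-values measure the spread left between these cultures once each gene's level differences between the 3 experiments are taken out.

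The count of calls rests on pairing within experiments and on experiments 2 and 3. With the experiment left out of the model as a block, 3 genes were called (Ep300, Nnat and Igfbp5), and with it as a random effect 125, 98 lower and 27 higher. Without experiment 3 the model called 17 genes, without experiment 2 it called 111, and without experiment 1 it called 412. The median change of the genes called lower was -0.26 in experiment 1, -0.47 in experiment 2 and -0.48 in experiment 3, while that of the genes called higher was 0.28, 0.3 and 0.37. Experiment 1 also had the smallest fall of Ep300. In 18 other fits that kept a block, 14 genes were called each time: Adgrg1, Akr1b8, Chi3l1, Ep300, Igfbp5, Lbp, Mmp9, Pla2g2a, Pla2g2d, Pla2g7 and Spp1 lower, and Herc6, Nnat and Tmem88 higher. Other calls named below were lost in at least 1 fit, and of the 93 called genes named here 77 stayed called without experiment 1, 37 without experiment 2 and 17 without experiment 3. None of the 93 changed direction in any of the 20 alternative fits.

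**Figure D2:**
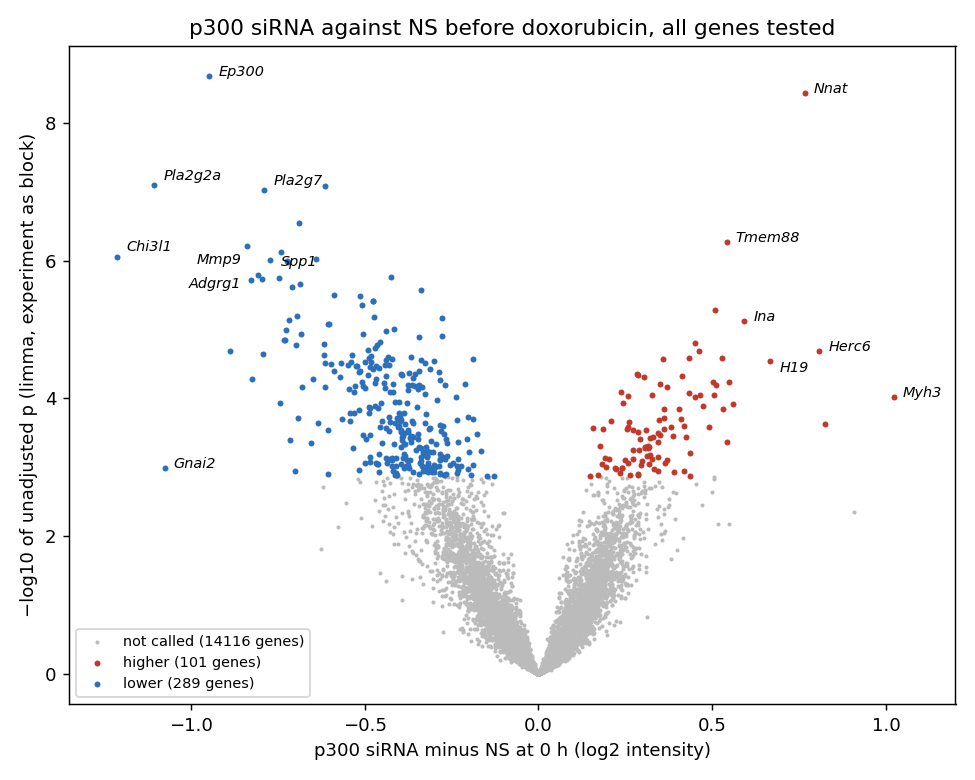
Change of each of 14506 genes between p300 siRNA and NS cells before doxorubicin (horizontal, log2) against the −log10 of its unadjusted p (vertical), with 289 genes called lower in blue, 101 called higher in red and the rest in grey. The falls reach -1.21 (Chi3l1) and the rises 1.02 (Myh3), and Ep300 has the smallest p.

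The largest falls beside Ep300 were those of Chi3l1, Pla2g2a and Gnai2. Chi3l1, a chitinase-like glycoprotein secreted by macrophages and injured tissue, was at 10.5, 10.46 and 10.28 in NS cells and at 9.91, 8.92 and 8.78 in p300 siRNA cells. Its groups did not overlap, and its fall of -1.21 (SE 0.15, adjusted p 0.0011) was smaller in experiment 1 than in the others. Pla2g2a, a secreted phospholipase A2 of the acute phase, was at 9.24, 10.05 and 10.04 in NS and at 8.56, 8.83 and 8.63 in p300 siRNA cells, a change of -1.10 (SE 0.113, adjusted p 0.000276). Further phospholipases fell with it: Pla2g7, which breaks down platelet-activating factor, by 0.79, and Pla2g2d by 0.69. The acute-phase and complement genes Lbp (lipopolysaccharide-binding protein) and C3 fell by 0.72 each. Slpi, an inhibitor of leukocyte proteases, fell by 0.82 (adjusted p 0.00713). Hsd11b1, which regenerates active glucocorticoid, fell by 0.80 (adjusted p 0.00148). Akr1b8, an aldo-keto reductase, fell by 0.75, and Igfbp5, which binds insulin-like growth factors, by 0.61.

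Adgrg1, an adhesion G protein-coupled receptor, was at 11.15, 11.13 and 11.37 in NS and at 10.68, 10.25 and 10.23 in p300 siRNA cells. That is a change of -0.83 (SE 0.11, adjusted p 0.00148), without overlap of the groups. Gnai2, an inhibitory G protein alpha subunit, differed between the experiments. It was at 13.35, 13.39 and 13.38 in NS cells and at 13.34, 11.72 and 11.84 in p300 siRNA cells, so its within-experiment changes were -0.01, -1.67 and -1.55. The mean of -1.07 (SE 0.263) had an adjusted p of 0.0423, and the call was lost without experiment 2 (-0.78, adjusted p 0.299) and without experiment 3 (-0.84, adjusted p 0.446). After 8 h of doxorubicin the p300 siRNA arrays showed the same split for Gnai2, with -0.01 in experiment 1, -1.44 in experiment 2 and -1.36 in experiment 3.

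Markers of macrophages and leukocytes moved furthest as a list. Of 15 measured, 6 were called lower and 0 higher, against 1.99% of all genes called lower and 0.696% called higher. The median change was -0.30, against 0.00 over all genes. Fcgr2b, an inhibitory receptor for immunoglobulin G, was at 9.06, 9.57 and 8.78 in NS and at 8.64, 8.55 and 7.8 in p300 siRNA cells, a change of -0.81 (SE 0.105, adjusted p 0.00148). Itgam, the alpha chain of the complement receptor CR3, fell by 0.54, and its partner Itgb2, which is not on the list, fell by 0.74. Tyrobp, a signalling adaptor of myeloid receptors, fell by 0.47, and Csf1r, the receptor for macrophage colony-stimulating factor, by 0.40. Cd68, a lysosomal glycoprotein, and C1qa, a chain of complement C1q, fell by 0.37 and 0.33. Lyz2 (lysozyme) changed by -0.39 (adjusted p 0.051), Ptprc, the pan-leukocyte phosphatase CD45, by -0.30 (adjusted p 0.11) and Adgre1, the macrophage marker F4/80, by -0.18 (adjusted p 0.472), and these were not called. The summed linear intensity of the 15 markers in p300 siRNA cells was 94.2% of that in NS cells in experiment 1, 71.2% in experiment 2 and 67.8% in experiment 3. In bulk RNA, fewer cells of a type and less RNA per cell cannot be told apart. The list had 6 lower calls without experiment 1, 1 without experiment 2, 0 without experiment 3, and 0 without the block.

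**Figure D3:**
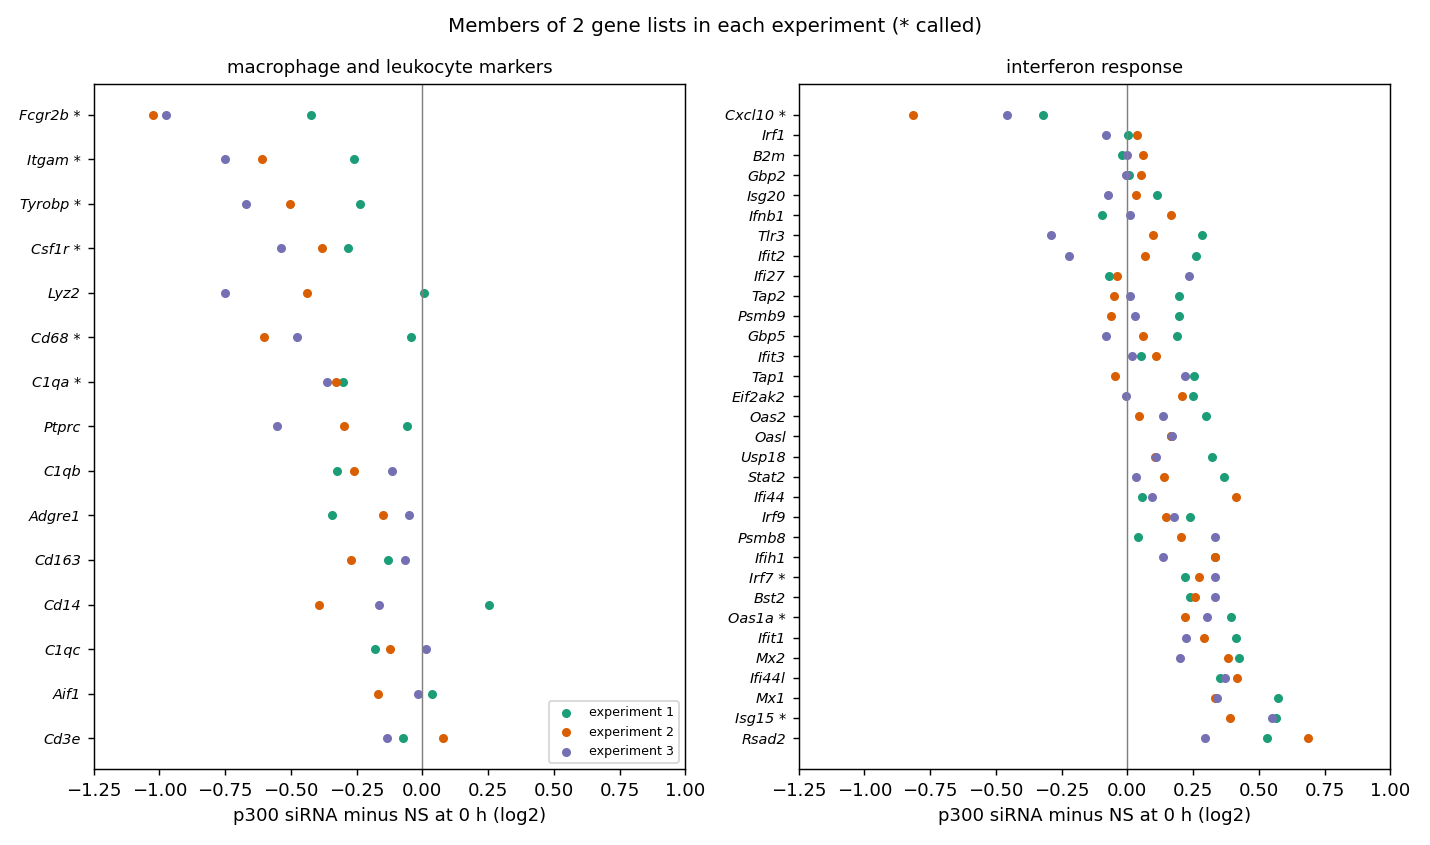
Change between p300 siRNA and NS cells before doxorubicin (log2) for the 15 macrophage and leukocyte markers (left) and the 32 interferon response genes (right), with a point for each of 3 experiments and an asterisk where the gene was called. The macrophage markers lie mostly below 0, with experiment 1 nearest to 0 for the 6 called ones, and the interferon genes lie mostly above 0 apart from Cxcl10.

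Of 30 measured cytokine and NF-kB genes, 4 were called lower and 0 higher (13.3%, against 2.69% called among all genes). The median change was -0.12. Ccl2, which draws monocytes, was at 12.76, 12.97 and 12.72 in NS and at 12.48, 12.23 and 11.88 in p300 siRNA cells, a change of -0.62 (SE 0.0982, adjusted p 0.00495). Its groups did not overlap, and the change was -0.28 in experiment 1, -0.74 in experiment 2 and -0.84 in experiment 3. Ccl7, from the same family, fell by 0.73, Cxcl10 by 0.53 and Cx3cl1 (fractalkine) by 0.38. Outside the list, and in part named after their values were seen, more chemokine genes were called: Cxcl11 fell by 0.89, Ccl6 by 0.79 and Ccl9 by 0.60. The Cxcl11 means of 8.03 in NS and 7.15 in p300 siRNA cells were both under the median level of 8.57 log2. Ccl6 was above that level in NS cells only (8.66, against 7.87 in p300 siRNA cells). Il1rn, the natural antagonist of the interleukin-1 receptor, fell by 0.73 and Il1rl1, the receptor for interleukin-33, by 0.70. Vcam1 (-0.51, adjusted p 0.108) and Cxcl1 (-0.39, adjusted p 0.42) were not called. The list had 6 lower calls without experiment 1, 2 without experiment 2, 0 without experiment 3 and 0 without the block. Macrophage marker sums were lower in the same experiments, 2 and 3, and their part in these changes was not tested.

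Matrix genes and proteases gave 6 lower and 0 higher calls among 39 (15.4%, against 2.69% of all genes), with a median of -0.11. Mmp9, a gelatinase, was at 10.12, 10.12 and 9.72 in NS and at 9.62, 9.18 and 8.65 in p300 siRNA cells, a change of -0.84 (SE 0.101, adjusted p 0.0011). Spp1, the secreted matrix protein osteopontin, was at 10.83, 10.77 and 10.62 in NS and at 10.38, 9.87 and 9.66 in p300 siRNA cells, a change of -0.77 (SE 0.0964, adjusted p 0.0011). Neither gene had overlapping groups, and both kept their call in the fits with a block. Mmp12, the macrophage elastase, fell by 0.68. Tgfbi, a secreted protein induced by TGF-beta, fell by 0.73, and Prg4, which encodes the lubricant lubricin, by 0.70. The matrix list had 9 lower calls without experiment 1, 4 without experiment 2, 2 without experiment 3 and 0 without the block. Summed macrophage markers were at 71.2% and 67.8% of NS and summed fibroblast markers at 88.9% and 87.2% in experiments 2 and 3, and their part in the matrix changes was not tested.

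Fibroblast markers were called lower in 6 of 16 cases and higher in 0 (37.5%, against 2.69% called among all genes). The median change was -0.18. Postn (periostin), a matrix protein of activated fibroblasts, was at 12.58, 12.22 and 12.44 in NS and at 12.31, 11.56 and 11.67 in p300 siRNA cells. The groups overlapped across experiments, but each p300 siRNA array was below its own NS array, and the change was -0.57 (SE 0.0957, adjusted p 0.00584). S100a4 and Dpt (dermatopontin) fell by 0.39 each, Fbln1 (fibulin-1) by 0.36, Dcn (decorin) by 0.34 and Col3a1 by 0.28. Col1a1, the main fibrillar collagen chain, changed by -0.08 (adjusted p 0.32). The summed intensity of the 16 markers was 93.8%, 88.9% and 87.2% of NS in the 3 experiments. The list had 5 lower calls without experiment 1, 3 without experiment 2, 0 without experiment 3 and 0 without the block.

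Of 12 myocyte markers 0 were called, which is near the 2.69% among all genes, the median change was -0.04, and their summed intensity was 92.9%, 98.5% and 102% of NS in experiments 1, 2 and 3. Tnni3 (cardiac troponin I) changed by -0.19 (adjusted p 0.131) and Ryr2, the calcium release channel, by -0.11 (adjusted p 0.636). Of the 11 endothelial markers 0 were called, with a median of -0.14, and of 8 markers of Schwann cells and neurons 0 were called, with a median of -0.18. Among 12 markers of smooth muscle and pericytes, Tagln (transgelin) rose by 0.18 (adjusted p 0.0392), a call lost without experiment 1 and without experiment 3. Krt19, 1 of 8 epicardial and mesothelial markers, fell by 0.40 (adjusted p 0.014), while Krt18 changed by -0.37 (adjusted p 0.0514). The Krt19 call was lost without experiment 2 and without experiment 3. The 4 erythroid markers had a median change of -0.01 and 0 calls.

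**Figure D4:**
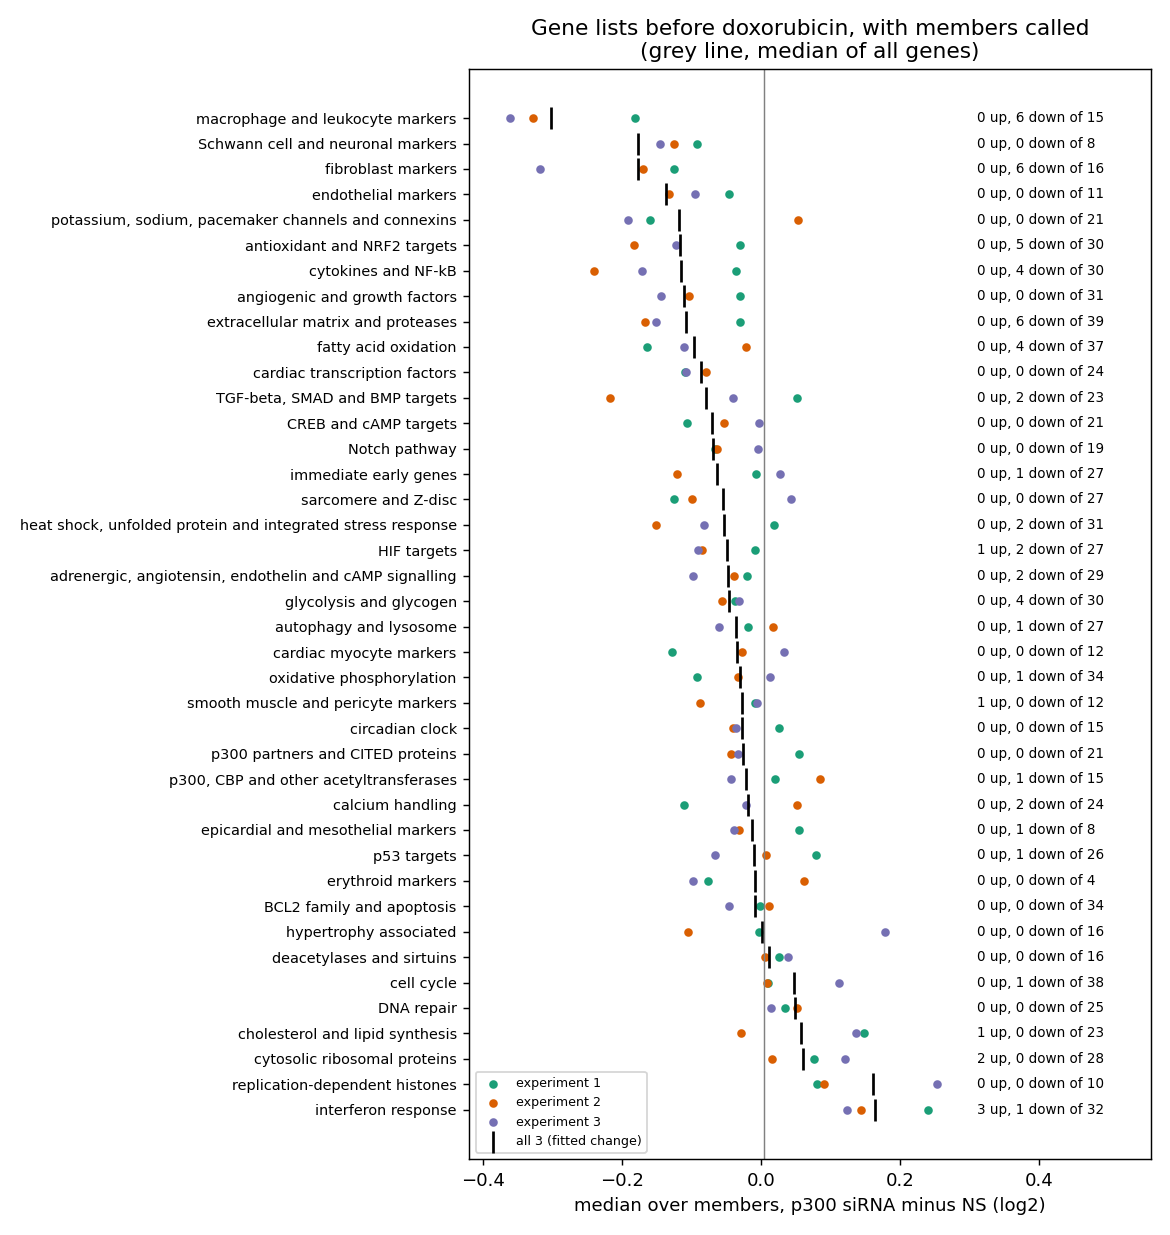
Median change over the measured members of 40 gene lists between p300 siRNA and NS cells before doxorubicin (log2), as points for the 3 experiments and a bar for the fitted change over all 3, with the number of members called higher (up) and lower (down) at the right. Macrophage and leukocyte markers lie lowest at -0.30 and the interferon response highest at 0.16.

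Lists of the heart's own programme are short, so that counts of 0 in them lie near the 2.69% called among all genes and are no result about them. Of 24 cardiac transcription factors 0 were called, their median was -0.09, and 12 lay below 0 in the 3 experiments, as did 18.1% of all genes. Gata5 was at -0.24 (adjusted p 0.151) and Hand2 at -0.21 (adjusted p 0.19). Among 27 sarcomere genes 0 were called, and among 16 genes associated with hypertrophy 0 were called, with medians of -0.05 and 0.00. The natriuretic peptide genes Nppa and Nppb changed by -0.03 (SE 0.0329) and 0.01 (SE 0.067). The myosin heavy chain genes Myh6 and Myh7 changed by 0.00 (SE 0.07) and 0.05 (SE 0.0476). The 21 p300 partners and CITED proteins had 0 calls, with Cited4 at -0.30 (adjusted p 0.235), as had 21 CREB and cAMP targets, 19 Notch pathway genes and 31 angiogenic and growth factors. Vegfa, the main angiogenic factor, changed by -0.15 (adjusted p 0.161).

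Calcium handling had 2 lower calls among 24 genes (8.33%, against 2.69% called among all genes). Trdn (triadin), which anchors calsequestrin to the calcium release channel, was at 8.87, 8.44 and 9.25 in NS and at 8.28, 8.09 and 8.75 in p300 siRNA cells, a change of -0.48 (SE 0.0949, adjusted p 0.0125). Sln (sarcolipin), an inhibitor of the calcium pump, fell by 0.32. Both calls were lost without experiment 1, when 2 other members were called higher: Rrad, an inhibitor of calcium channels, at 0.68, and Fkbp1b, which binds the calcium release channel, at 0.42. Over the 3 experiments Rrad changed by 0.50 (adjusted p 0.0665) and Fkbp1b by 0.35 (adjusted p 0.142). The list had 1 call without experiment 2, and 0 without experiment 3 or the block. Adra1b, the alpha-1B adrenergic receptor, fell by 0.60 (adjusted p 0.0193). It was, with Gnai2, 1 of 2 called genes among 29 of adrenergic and related signalling (6.9%, against 2.69% of all genes). Neither was called without experiment 2, without experiment 3 or without the block, and Adra1b was not called without experiment 1 either (adjusted p 0.0637). Of 21 potassium, sodium and pacemaker channels and connexins 0 were called, with a median of -0.12. Kcne1 was at -0.47 (adjusted p 0.0769).

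Several genes of fuel use fell. Aldoc, an aldolase of glycolysis, was at 10.7, 10.81 and 11.73 in NS and at 10.21, 10.26 and 10.85 in p300 siRNA cells, a change of -0.64 (SE 0.0795, adjusted p 0.0011). The groups overlapped because experiment 3 ran high in both, and the fall was present in each pair. Pgam2, the muscle phosphoglycerate mutase, fell by 0.62, Slc2a1 (the glucose transporter GLUT1) by 0.28 and Slc16a1 (a lactate transporter) by 0.20. These 4 were the calls among 30 genes of glycolysis and glycogen (13.3%, against 2.69% called among all genes). The fatty acid oxidation list, which also holds genes of uptake and lipolysis, gave 4 lower calls (10.8%) among 37 genes, with a median of -0.10. Cd36, a fatty acid transporter, was at 10.91, 11.3 and 11.71 in NS and at 10.38, 11.06 and 11.24 in p300 siRNA cells, a change of -0.41 (SE 0.063, adjusted p 0.00393). Angptl4, an inhibitor of lipoprotein lipase, fell by 0.46, Lpl, that lipase itself, by 0.35, and Ucp2 by 0.21. Cpt2 of the same list changed by -0.20 (adjusted p 0.168) and was not called. Of 34 genes of oxidative phosphorylation, Ndufa10 fell by 0.53 and the others were not called. Acly, which makes acetyl-CoA from citrate, rose by 0.22 (adjusted p 0.0423) among 23 genes of cholesterol and lipid synthesis. The glycolysis and fatty acid lists had 3 lower calls each without experiment 1, 2 and 1 without experiment 2, and 0 each without experiment 3 or the block. Ndufa10 lost its call without experiment 2 and without experiment 3, and Acly without any one of the 3 experiments.

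Antioxidant genes were lower in 5 of 30 cases and higher in 0 (16.7%, against 2.69% of all genes), with a median of -0.12. Nqo1, a quinone reductase and textbook target of NRF2, was at 9.99, 10.71 and 10.58 in NS and at 9.76, 9.86 and 10.12 in p300 siRNA cells. Its change was -0.52 (SE 0.09, adjusted p 0.0066), with a fall in each experiment and some overlap between them. Hmox1 (heme oxygenase 1) fell by 0.49, Sod2 (the mitochondrial superoxide dismutase) by 0.31, Gpx3 (the extracellular glutathione peroxidase) by 0.30 and Prdx6 by 0.24. Slc7a11, which imports cystine, changed by -0.34 (adjusted p 0.293). The list had 8 lower calls without experiment 1 and 0 without experiment 2, without experiment 3 or without the block. Hmox1 and Slc2a1 were also the lower calls among 27 targets of hypoxia-inducible factor, where Car9 (carbonic anhydrase 9) rose by 0.41 (adjusted p 0.016). These 3 calls were 11.1% of that list, against 2.69% called among all genes. Without experiment 1 that list had 3 lower and 0 higher calls, and without experiment 2 or experiment 3 it had 0. Outside the lists, genes of iron control were also called: Hjv (hemojuvelin, a coreceptor that controls hepcidin) fell by 0.72 and Hamp (hepcidin) by 0.39, with the largest Hjv change, -1.01, in experiment 3.

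Stress and growth lists had 0 to 2 calls each, and each of these calls was lost in at least 1 of the fits without an experiment. A list of this size with 0 or 1 call lies near the 2.69% called among all genes, which is no result about the list. Gadd45a fell by 0.43 among 26 p53 targets, Klf10 by 0.32 among 27 immediate early genes, Ccnd1 (cyclin D1) by 0.36 among 38 cell cycle genes and Ctss (cathepsin S) by 0.51 among 27 genes of autophagy and lysosomes. Of the cell cycle genes 28 lay above 0 and 10 below, with a median of 0.05. Ccna2 (0.29, adjusted p 0.0834) and Cdc20 (0.25, adjusted p 0.0802) of that list were not called. Hspb8 fell by 0.37 and Pdia6 by 0.26 among 31 genes of heat shock and unfolded protein responses (6.45% called, against 2.69% of all genes). Tgfbi and Id2 (by 0.36) fell among 23 TGF-beta, SMAD and BMP targets (8.7% called). Among 34 genes of the BCL2 family and apoptosis, 25 of DNA repair and 15 of the circadian clock 0 were called. Of 28 cytosolic ribosomal protein genes, Rps14 rose by 0.26 and Rpl18 by 0.15 (7.14% called, against 2.69% of all genes). In that list 14 lay above 0 in the 3 experiments (19.4% of all genes). Of 10 measured replication-dependent histone genes 0 were called, with a median of 0.16 and 8 above 0 in the 3 experiments.

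The largest rises among genes that exceeded the median level of 8.57 log2 in at least 1 group were those of Myh3, Herc6, Nnat and H19. A gene could pass that limit through its p300 siRNA level alone, as Myh3 and Cpa1 did, so the order of the rises is a description. Myh3, the embryonic myosin heavy chain, was at 8.74, 8.91 and 7.1 in NS and at 9.44, 9.52 and 8.86 in p300 siRNA cells. The groups overlapped, since NS cells of experiment 3 stood far below the rest, and the within-experiment rises were 0.70, 0.62 and 1.76. The mean change was 1.02 (SE 0.193, adjusted p 0.00958). Nnat (neuronatin), an imprinted gene, was at 10.82, 10.82 and 10.74 in NS and at 11.45, 11.72 and 11.51 in p300 siRNA cells, a rise of 0.77 (SE 0.0621, adjusted p 2.7e-05) without overlap. H19, an imprinted long noncoding RNA, was at 9.95, 9.5 and 9.84 in NS and at 10.26, 10.37 and 10.67 in p300 siRNA cells, a rise of 0.67 (SE 0.112, adjusted p 0.00584) that was not called without experiment 2 or 3 (adjusted p 0.0833 and 0.121). Igf2, the imprinted neighbour of H19, changed by 0.28 (adjusted p 0.0857). Tmem88, which restrains Wnt signalling, was at 10.2, 10.29 and 10.09 in NS and at 10.8, 10.77 and 10.64 in p300 siRNA cells, a rise of 0.54 (SE 0.0643, adjusted p 0.0011). Ina, a neuronal intermediate filament gene, rose by 0.59, Cpa1 (a carboxypeptidase) by 0.54, Mfap2, a microfibril protein gene, by 0.51 and Phf19, a polycomb-associated gene, by 0.49. Cyp26b1, which degrades retinoic acid, rose by 0.55 but is outside this ranking. Its means of 7.48 in NS and 8.03 in p300 siRNA cells were both under 8.57. Nlgn2 (a synaptic adhesion protein) and St14 (the protease matriptase) rose by 0.46 and 0.45.

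The list of interferon response genes had the highest median change of the 40 lists. Genes induced by type I interferons often carry the interferon-stimulated response element in their promoters, and IRF family factors such as IRF7 bind similar sequences. That element is approximated by GAAA, any 2 bases and GAAA again, which reads TTTC, 2 bases and TTTC on the other strand. The motif was searched on both strands of the 250 bases before gene starts in RefSeq promoters of rat build GRCr8, counting overlapping matches. Of 33469 promoters 1140 (3.41%) held it. Of the 26 interferon list genes with a promoter entry, 17 held it in at least 1 promoter. The first count is by promoter and the second by gene, so the shares are not like measures. The promoters of 5 genes discussed next are shown because they hold the motif, in capitals, and 1 of them, Cxcl10, fell. Positions are chr1:205800024-205800273 on the minus strand for Irf7, chr12:41330216-41330465 on the plus strand for Oas1a, chr12:47383186-47383435 on the minus strand for Oasl2, chr6:48788121-48788370 on the minus strand for Rsad2 and chr14:15988816-15989065 on the plus strand for Cxcl10. Each is written 5′ to 3′ on the gene's strand and ends at the base before the start site.
Irf7: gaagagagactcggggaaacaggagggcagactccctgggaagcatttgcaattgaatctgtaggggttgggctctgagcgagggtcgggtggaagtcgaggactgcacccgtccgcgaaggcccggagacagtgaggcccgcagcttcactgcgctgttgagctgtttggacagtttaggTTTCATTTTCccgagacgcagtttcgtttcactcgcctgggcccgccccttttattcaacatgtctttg
Oas1a: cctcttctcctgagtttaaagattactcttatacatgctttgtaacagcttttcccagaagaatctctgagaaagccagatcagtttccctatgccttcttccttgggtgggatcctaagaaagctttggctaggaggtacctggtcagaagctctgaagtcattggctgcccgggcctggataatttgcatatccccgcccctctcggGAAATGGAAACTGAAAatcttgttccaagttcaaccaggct
Oasl2: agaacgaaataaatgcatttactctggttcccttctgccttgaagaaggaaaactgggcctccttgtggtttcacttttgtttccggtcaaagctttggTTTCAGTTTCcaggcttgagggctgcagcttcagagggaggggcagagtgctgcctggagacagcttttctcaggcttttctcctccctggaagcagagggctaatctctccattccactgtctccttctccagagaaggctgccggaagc
Rsad2: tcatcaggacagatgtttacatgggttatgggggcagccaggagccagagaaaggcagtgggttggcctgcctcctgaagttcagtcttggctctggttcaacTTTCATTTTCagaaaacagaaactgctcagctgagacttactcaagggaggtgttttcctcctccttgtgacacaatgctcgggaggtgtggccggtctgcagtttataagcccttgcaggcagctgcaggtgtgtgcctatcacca
Cxcl10: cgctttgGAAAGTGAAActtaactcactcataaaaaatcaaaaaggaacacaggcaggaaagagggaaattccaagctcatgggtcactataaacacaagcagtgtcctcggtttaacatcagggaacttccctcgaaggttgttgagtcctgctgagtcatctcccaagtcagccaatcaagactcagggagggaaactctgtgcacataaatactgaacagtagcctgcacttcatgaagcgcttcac
The motif began 69 bases before the start site in Irf7, 41 and 35 bases before it in the overlapping matches of Oas1a, 151 in Oasl2, 147 in Rsad2 and 243 in Cxcl10. The promoters of Mx1, Mov10, Herc6, Cmpk2 and Uba7 held no match within this window. A match is a description of the sequence and not a binding site.

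Of 32 measured interferon response genes 3 were called higher and 1 lower (12.5%, against 2.69% called among all genes). The median change was 0.16, and 18 lay above 0 in the 3 experiments, against 19.4% of all genes. Isg15, a ubiquitin-like modifier, was at 9.48, 10.57 and 10.3 in NS and at 10.05, 10.96 and 10.85 in p300 siRNA cells. Experiment 1 was low in both groups, so the groups overlapped, while each pair rose, for a change of 0.50 (SE 0.0899, adjusted p 0.00757). Oas1a, an antiviral oligoadenylate synthetase, rose by 0.31 (adjusted p 0.0277) and Irf7, a transcription factor of the pathway, by 0.27 (adjusted p 0.0193). Cxcl10, a chemokine that interferon also induces, was the member that fell. Rsad2 (viperin) changed by 0.50 (SE 0.128, adjusted p 0.0508) and Mx1, an antiviral GTPase, by 0.42 (adjusted p 0.152), and neither was called. Genes outside the list that are known to be induced by interferon were also named, for their size of change or after their values were seen. Herc6, the rodent ligase for Isg15, was at 8.63, 8.93 and 8.55 in NS and at 9.42, 9.82 and 9.29 in p300 siRNA cells, a rise of 0.81 (SE 0.132, adjusted p 0.00559) without overlap. Uba7, which activates Isg15, rose by 0.46, Oasl2 by 0.51, Cmpk2 by 0.47, Rtp4 by 0.44 and the helicase Mov10 by 0.43. Unlike the macrophage markers, the list's median was largest in experiment 1, at 0.24, against 0.14 and 0.12 in experiments 2 and 3. Its higher and lower calls were 2 and 1 without experiment 1, 1 and 0 without experiment 2, and 0 and 0 without experiment 3 or without the block.

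The 8 h arrays, which the 0 h contrast does not use, gave a reading of p300 siRNA against NS in cells treated with doxorubicin. The cultures belong to the same 3 experiments, and the variance estimate is shared, so the readings at 0 h and 8 h are not independent. Of the 289 genes called lower before the drug, 285 were also below 0 at 8 h, 163 of them called, and of the 101 called higher 96 were above 0, with 19 called. At 8 h 457 genes were called in all (3.15%), 344 lower (2.37%) and 113 higher (0.779%). The 182 genes called in one direction at both times were 46.7% of the calls at 0 h and 39.8% of those at 8 h. Chi3l1 changed by -1.05 at 8 h, Pla2g2a by -0.96, Ep300 by -0.92, Mmp9 by -0.77 and Nnat by 0.45, each called. The 8 h total was 7 without the block, 35 without experiment 3 and 157 without experiment 2.

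Changes at 8 h were smaller for 227 of the 289 genes called lower and 94 of the 101 called higher, with medians of -0.33 and 0.18. Genes picked for a large change at one time tend to show a smaller one at another, so this is a description. The difference between the times was tested by the interaction, which called 0 of 14506 genes (limma, 0.0%, smallest adjusted p 0.902), also with no block and with a random block, while 639 genes had an unadjusted p under 0.05. Herc6 rose by 0.81 at 0 h and stood at 0.26 at 8 h, a difference of -0.54 (SE 0.186, adjusted p 0.989). Tmem88 stood at 0.17 at 8 h, a difference of -0.38 (SE 0.091, adjusted p 0.902). For Irf7 the 8 h change was -0.07, a difference of -0.35 (SE 0.0818, adjusted p 0.902). The interferon list had a median of -0.04 at 8 h, with 0 higher calls and 1 lower, while the macrophage list kept a median of -0.28 with 7 lower calls. S100a4 stood at -0.07 at 8 h, a difference of 0.33 (SE 0.0975, adjusted p 0.989), and Cd36 at -0.15, a difference of 0.27 (SE 0.0891, adjusted p 0.989). The smallest interaction p values belonged to Uqcrb (a subunit of respiratory complex III), B3galt2 (a galactosyltransferase), Ctdsp1 (a phosphatase of RNA polymerase II), Cyp3a9 (a cytochrome P450) and Tcp11l2. B3galt2 was at -0.33 at 0 h and -1.0 at 8 h, a difference of -0.68 (SE 0.135, adjusted p 0.902).

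**Figure D5:**
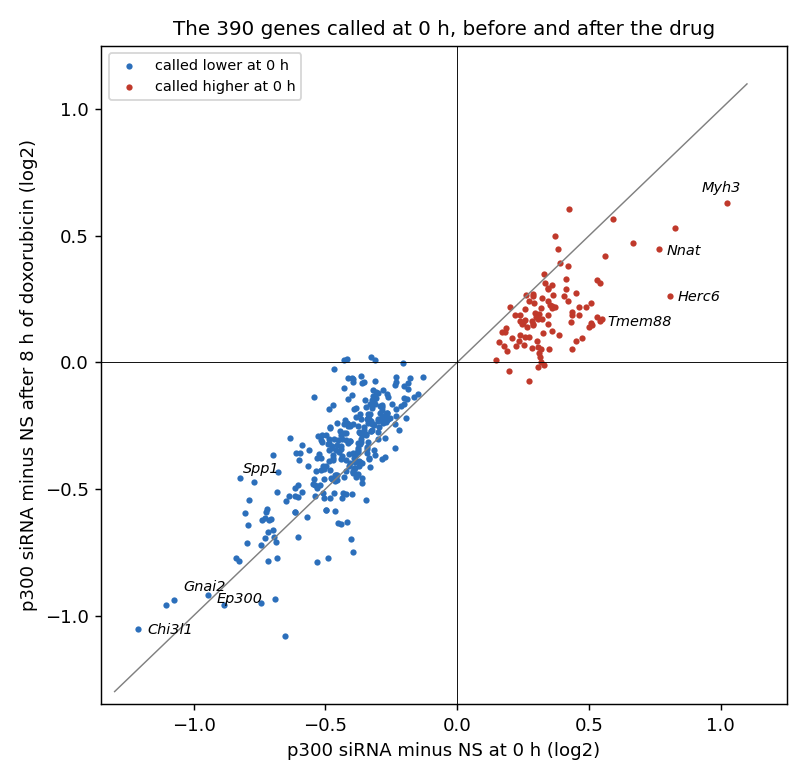
Change between p300 siRNA and NS cells before doxorubicin (horizontal, log2) against the change after 8 h of the drug (vertical, log2) for the 390 genes called at 0 h, with the diagonal as a grey line. Of the genes called lower 285 of 289 and of those called higher 96 of 101 lie on the same side of 0 at both times, and most of the higher ones lie below the diagonal.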

How the data were processed

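Total RNA of 12 cultures was measured on Affymetrix whole-transcript arrays. The deposited values are linear intensities (8.05 to 25315) of 29214 probe sets, made per the submitters' processing notes with Affymetrix Expression Console 1.1 and RMA. The step that made them linear is not given in the sources used here. Log2 of the deposited intensity was taken here. Array medians lay between 7.73 and 7.80 log2, and no read depth applies: the number of arrays limits the precision.

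Probe sets with 1 gene symbol (15310) were kept and the brightest was used per gene, which left 14506 genes. Of these, 14481 matched the GRCr8 gene table by Entrez identifier, which was used for names only. One limma model (version 3.58.1, R 4.3.3; lmFit, eBayes with a trend, two-sided) held 4 group means and the experiment as a block over the 12 arrays, with 6 residual degrees of freedom. It was tested on simulated data whose planted changes were equal in the 3 experiments. That test cannot show how the model treats a change that differs between experiments. Genes in 526 cases had several probe sets. Figures used Python 3.11.15 and matplotlib 3.10.9.

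The replicate numbers were taken to pair the arrays, as the series text states 3 experiments. Deviations from group means correlated with a median of 0.504 (0.172 to 0.689) over the 18 pairs with 1 number. The median of -0.271 for other pairs is no separate result. Deviations within a group sum to 0, which forces it below 0 where pairs with 1 number correlate. The gene lists, the comparison and the genes in it were chosen with earlier results of these data known. Named genes were Ep300 and Crebbp, the 15 largest rises and falls with 1 sign in the 3 experiments and a level over 8.57 log2 (the median gene), up to 4 called and 2 uncalled members per list, and 5 genes of smallest interaction p. Myh6, Myh7, Nppa, Nppb, Vegfa, Col1a1, Col3a1, Dcn, C1qa, Cd68, Adgre1, Lyz2, Ptprc, Prdx6, Igfbp5, Lbp, C3, Pla2g2d, Prg4, Ccl9, Cxcl11, Il1rn, Il1rl1, Hamp, Hjv, Cyp26b1, Mov10 and Rtp4 were named after their values were seen. No level limit was set for these genes or for list members, and a fall could pass the limit through its NS level alone. Alternatives changed the block, the arrays, the variance model, the probe sets, the scaling and the dim-gene filter, or left out experiments or arrays.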

Additional observations from a re-analysis of the deposited data

Results flagged for a closer look

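Probe sets without exactly 1 gene symbol were outside the comparison. Of 13904 such probe sets, 37 were called higher and 46 lower before doxorubicin (limma, p adjusted over 29214 probe sets), and they cannot be named from the annotation used.

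For 7 named genes the 3 experiments moved one way before doxorubicin and the other way after 8 h of it. The difference of 8 h minus 0 h was 0.34 for Cox7b, -0.24 for Crtc2, -0.43 for Ctdsp1, 0.27 for Hey2, -0.79 for Rrad, 0.40 for Tcp11l2 and 0.26 for Uqcrb on the log2 scale. Rrad had the largest, from 0.50 to -0.29. The interaction test called none of the 7 (limma, adjusted p from 0.902).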

How the results depend on the processing

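No replicate block left 3 called genes in place of 390 at 0 h (1 higher, 2 lower). Without the block, the 6 arrays at 0 h alone left 0 (0 higher, 0 lower), where the Ep300 change of -0.95 had an adjusted p of 0.164. With the block kept, the 6 arrays at 0 h alone gave 552 calls (146 higher, 406 lower), with an Ep300 adjusted p of 0.000126 (limma). At 8 h no replicate block left 7. A random replicate block left 125 (27 higher, 98 lower), and 92 at 8 h. Leaving out an experiment or a 0 h array gave 17 to 503 calls at 0 h, 6 to 94 higher and 11 to 409 lower, and 35 to 469 at 8 h. A fit without the trend gave 265 calls at 0 h and 254 at 8 h. The robust fit, the dim-gene filter, the 2 other choices of probe sets and both scalings kept the 0 h total within 1.5 times 390, and the interaction had 0 calls in each fit that could test it. The alternatives for the 8 h total were added after seeing the data. The cause of these differences was not tested.

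Directions turned only for genes that were not called. With an experiment or array left out, the change ranged from -0.0078 to 0.099 for Crebbp, -0.255 to 0.0126 for Cyp3a9, -0.0070 to 0.145 for Hbb, -0.326 to 0.0192 for Nptx2, -0.217 to 0.0586 for Ryr2 and -0.0258 to 0.229 for Xpa. It ranged from -0.0595 to 0.0764 for Myh6, -0.0147 to 0.0971 for Myh7, -0.0618 to 0.0123 for Nppa and -0.0995 to 0.0914 for Nppb. Quantile normalization gave 0.0011 for Nppa. With 3 arrays per group, the median SE of a change was 0.0785 (0.0951 without the block), which limits calls on small changes.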
